A study of Mus musculus with 17 samples.

Results

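Potassium channel genes were taken as the gene symbols made of Kcn, a lower-case family name and a number, leaving out Kcnj13 and Kcne2, which are known from choroid plexus. The pattern matched 92 symbols and left 90 genes of the 24498 in the table. They comprised 40 voltage-gated (Kv) subunits, 14 inward rectifiers (Kir), 14 tandem-pore (K2P) channels, 8 calcium- or sodium-activated channels and 14 auxiliary subunits. The data are read counts from polyadenylated RNA of the dorsal hippocampus of mice, taken as slices that comprise its CA fields and dentate gyrus. Of the mice, some were wild type (WT) and some constitutive knockouts (KO) of Acss2, whose product turns acetate into acetyl-CoA, and both genotypes were bred by homozygous crosses among the offspring of heterozygotes. Injection into the dorsal hippocampus was done when the mice were 6 months old, with either phosphate-buffered saline (PBS) or tau purified from the frontal cortex of Alzheimer's disease patients (Tau), and tissue was taken 6 months later. Males gave 4 groups of 3 libraries (WT PBS, WT Tau, KO PBS and KO Tau), and Tau-injected females gave 2 WT and 3 KO libraries. None of these libraries came from saline-injected females. Numbers such as 711 are the submitters' own names of libraries, and p-values measure the spread between these samples.

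Potassium channels let potassium leave or enter the cell and so set the resting potential, the shape of the action potential and the firing rate of neurons. Kv channels open on depolarisation, Kir channels hold the membrane near the potassium equilibrium, K2P channels carry leak current, and calcium- or sodium-activated channels couple ion entry to potassium efflux. Auxiliary subunits alter trafficking and gating. In the hippocampus most of these genes are known from neurons, whereas Kcnj10 and Kcnj16 are known from astrocytes and Kcnj8 from mural cells of vessels.

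Libraries held 14183131 to 22463635 counts, so 3 counts stood for at most 0.212 CPM (the count scaled to a fixed library total) in any library, a limit that covers counting error only. Acss2 lay at 44.0 to 54.6 CPM in the 8 WT libraries and at 3.07 to 8.81 CPM in the 9 KO libraries, with no overlap. All 12 dentate granule markers and all 8 CA1 pyramidal markers of the lists used were detected, with summed levels of 329 to 881 CPM and 508 to 1175 CPM. Male KO PBS 752 stood apart, with striatal markers summed to 785 CPM against 175 to 289 CPM elsewhere and neocortical markers at 1018 CPM. Within male KO Tau, neocortical markers summed to 452 CPM in 711 but to 796 and 792 CPM in 712 and 713, against 443 to 589 CPM in male WT libraries. In bulk tissue, fewer cells of a type and less RNA per cell cannot be told apart.

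The channel genes were mostly present in this tissue. Counts were found for 89 of the 90 genes, and Kcnk16 was listed at 0 in every library. A level per length (TPM, counts divided by exon length and scaled to a fixed sum) of at least 1 on average over the libraries was reached by 72 genes, and 54 reached 10. The Kv genes made up 40.8% of the summed TPM, the auxiliary subunits 30.4%, the Kir genes 18.9%, the K2P genes 7.26% and the calcium- or sodium-activated genes 2.72%. The low-count filter of the fits kept 77 genes, and none of the other 13 exceeded a mean of 0.703 TPM (Kcne3).

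Among the auxiliary subunits, Kcnab2, a beta subunit of Kv channels with an oxidoreductase fold, had the highest level of all, 729 ± 170 TPM (SD over 17 libraries). Kcnip2 and Kcnip3, calcium-binding partners of A-type channels, followed at 212 ± 40.9 and 137 ± 27.0 TPM. These SDs span all groups. Kcnab2 therefore lay above Kcnip2 by more than the spread, whereas Kcnip2, with a range of 130 to 288 TPM, and Kcnip3, with 100 to 192 TPM, overlapped.

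Among Kv genes, Kcna1, a low-threshold channel of axons, led at 208 ± 54.5 TPM. Its highest value, 396 TPM, came from male KO PBS 752.

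Among Kir genes, Kcnj10, the main astrocyte channel, stood at 195 ± 76.6 TPM, Kcnj4, a strong rectifier of excitatory neurons, at 190 ± 69.8 TPM and Kcnj3, a subunit of G protein-gated channels, at 148 ± 19.0 TPM. Their ranges overlapped, and the SDs of Kcnj10 and Kcnj4 were over 3 times that of Kcnj3. Kcnj16, which pairs with Kcnj10 in astrocytes, stood at 32.8 ± 13.03 TPM. Kcnj8, the pore of the vascular ATP-sensitive channel, stood at 6.44 ± 1.06 TPM.

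Among leak channels, Kcnk1 led the K2P genes at 171 ± 18.8 TPM, above Kcnk2, a mechanosensitive leak channel, at 55.6 ± 7.11 TPM and Kcnk12, a silent subunit, at 27.4 ± 5.14 TPM, with no overlap of these ranges in this order. Kcnt1, the sodium-activated channel, stood at 34.2 ± 14.5 TPM, Kcnn2, a small-conductance calcium-activated channel, at 22.2 ± 3.73 TPM and Kcnma1, the large-conductance calcium-activated channel, at 20.8 ± 3.85 TPM. The ranges of the last 3 genes overlapped.

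**Figure D1:**
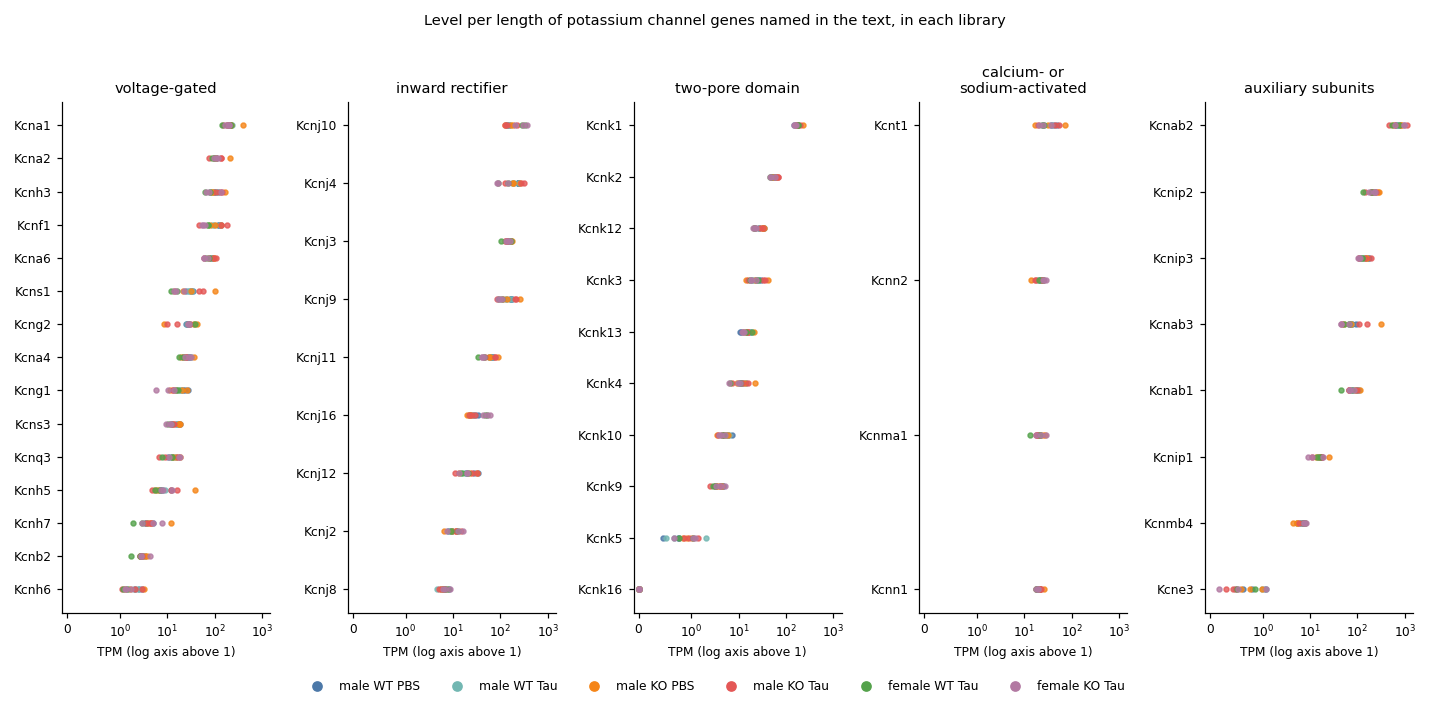
Each point is 1 library and each row 1 gene. The horizontal axes give TPM, on a log scale above 1, for the channel genes named in the text, by class. Colours mark the 6 groups. Kcnab2 lies farthest right of all, at 452 to 1099 TPM, and Kcnk16 lies at 0.

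Some levels are uncertain for reasons of annotation. The exons of 25 of the 90 genes overlap those of a gene on the other strand, over more than 20% of the exon length in 3 of them, Kcna6 (39.6%, with Gm26673), Kcnmb4 (31.5%, with Kcnmb4os1 and Kcnmb4os2) and Kcnj3 (31.1%, with Gm26794). The reads had been counted as reverse-stranded, but the name of the library kit does not state that it keeps strand, so reads of such pairs may not be told apart. Exons of Kcnk4 and Kcnab2 overlap a gene on the same strand, over 13.1% and 2.24% of their length.

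The first question was whether Tau injection changed channel genes in WT males. None of the 77 tested genes passed a false discovery rate (FDR) of 0.05 in edgeR's quasi-likelihood test, and none reached an unadjusted p under 0.05, beside 0% and 1.86% of all 15098 genes tested. That second count depended on the fit. With edgeR on only these 2 groups 8 of 75 genes, all lower in Tau, had an unadjusted p under 0.05 (10.7%, beside 8.11% of all genes), and with limma voom 8 of 77 did, 7 of them lower (beside 8.95%), but none passed the FDR in either. The median log2 change over the channel genes was -0.09, with 27 of 77 higher in Tau, and over all genes -0.01. By smallest p the higher genes were Kcnk13 (0.37 ± 0.22, log2 change ± SE) and Kcnk5 (0.72 ± 0.49), both K2P genes, and Kcnk9 (-0.32 ± 0.18), an acid-sensitive leak channel, was among the lower ones (adjusted p = 1.00 each). Kcnk5 rested on male WT Tau 772 (1.64 CPM against 0.362 to 0.603 CPM in the WT PBS libraries), and its change without that library was -0.11. Choroid plexus markers summed to 1116 CPM in 772 and to 226 to 407 CPM in the other male WT libraries, and their part in this value was not tested.

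The next was the effect of the Acss2 knockout in saline-injected males. Again no channel gene passed the FDR, beside 0.00662% of all genes, which was Acss2 alone. At an unadjusted p under 0.05 there were 5 of 77 channel genes (6.49%), beside 4.42% of all genes. The median log2 difference was 0.11 with 50 of 77 higher in KO, against 0.01 over all genes. Kcnma1 lay at 97.4, 109 and 85.2 CPM in KO PBS and at 79.0, 83.5 and 78.8 CPM in WT PBS. The 2 groups did not overlap for this gene, and its difference was 0.32 ± 0.09 (adjusted p = 0.999). Here and in the genotype and treatment comparisons below, genes were named by smallest p in the same libraries. A lack of overlap in them is therefore no further support. Kcna1 differed by 0.51 ± 0.21, or by 0.17 ± 0.14 without library 752. The astrocyte gene Kcnj16 (-0.37 ± 0.16) and Kcnmb4 (-0.36 ± 0.16), a brain beta subunit of the Kcnma1 channel, lay lower.

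Set against saline-injected WT males, male KO Tau showed no channel gene past the FDR (0.00662% of all genes passed), and 5 of 77 had an unadjusted p under 0.05, beside 6.34% of all genes. Kcns3 and Kcng1, silent subunits that alter other Kv channels, had the smallest p among lower genes (-0.35 ± 0.10 and -0.75 ± 0.23, adjusted p = 0.782 each). Kcng1 lay at 16.3, 14.2 and 14.3 CPM in KO Tau and at 25.3, 21.96 and 28.6 CPM in WT PBS, with no overlap. Kcnj2, a classical strong inward rectifier, lay at 14.8, 18.9 and 14.9 CPM against 12.1, 11.3 and 10.2 CPM, again with no overlap (0.54 ± 0.19). Kcnk2 was 0.24 ± 0.11 higher.

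Against male WT Tau, the other group to which male KO Tau was set, the count was also 0 at the FDR (0.00662% of all genes passed) and 4 of 77 at an unadjusted p under 0.05, beside 4.71%. Kcnj2 (0.53 ± 0.19) and Kcnh3 (0.49 ± 0.22), an EAG-type channel of the forebrain, were the higher genes by smallest p. The lower ones were Kcns3 (-0.25 ± 0.10) and Kcnk10 (-0.43 ± 0.18), a leak channel related to Kcnk2 (adjusted p = 0.927 each). These 2 comparisons share the KO Tau libraries, so they are not independent.

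Within male KO, the effect of Tau was examined against PBS. No gene passed the FDR, beside 0% of all genes, but 11 of 77 channel genes (14.3%) had an unadjusted p under 0.05, beside 7.95% of all genes, and 8 of these 11 were lower in Tau. With edgeR on only these 2 groups the count was 3 of 75 (beside 2.48%), and with limma voom 16 of 77 (beside 10.9%), fewer than the 29 of 77 that voom gave for KO Tau against WT Tau (beside 23.8%). The median log2 change was -0.17 with 23 of 77 higher, against 0.00 over all genes. This lean towards lower levels in Tau was not kept in edgeR without libraries 711 and 752. There 26 of 77 channel genes passed the FDR, beside 10.4% of all genes, and 16 of the 26 were higher. Kcnma1 lay at 72.4, 73.7 and 76.1 CPM in KO Tau against the KO PBS values given above, with no overlap, a change of -0.44 ± 0.09 (adjusted p = 0.549). Kcns3 lay at 10.2, 10.2 and 9.60 CPM against 13.5, 12.8 and 13.2 CPM, also with no overlap (-0.44 ± 0.10). Kcnmb4 (0.44 ± 0.16) and Kcnj2 (0.44 ± 0.19) were the higher genes by smallest p.

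The genotype by treatment interaction asks whether Tau acted differently in the genotypes. It passed the FDR for no channel gene (0% of all genes) and had an unadjusted p under 0.05 for 5 of 77, beside 4.17%. Kcnma1 (-0.44 ± 0.13) and Kcns3 (-0.35 ± 0.14) had negative terms, Kcnmb4 (0.55 ± 0.23) and Kcnj16 (0.43 ± 0.23) positive ones. KO against WT averaged over treatment gave 0 genes at the FDR (0.00662% of all genes) and 2 of 77 at an unadjusted p under 0.05, beside 4.58%, with Kcnj2 (0.32 ± 0.13) and Kcnn1 (0.16 ± 0.07), a small-conductance channel, higher and Kcnk10 (-0.38 ± 0.13) and Kcng1 (-0.34 ± 0.16) lower. Tau against PBS averaged over genotype gave 0 at the FDR (0% of all genes) and 6 of 77 at an unadjusted p under 0.05, beside 5.37%. All 6 were lower in Tau, led by Kcns3 (-0.27 ± 0.07) and Kcnma1 (-0.22 ± 0.07). Only 14 of 77 channel genes were higher in Tau in that comparison, with Kcnk2 (0.14 ± 0.08) and Kcnj2 (0.22 ± 0.13) first by p, and the median was -0.12 against -0.01 over all genes. In edgeR without 711 and 752, 13 of the 25 channel genes with an unadjusted p under 0.05 in that comparison were lower.

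In females under Tau, KO against WT gave no channel gene at the FDR (0.00649% of all genes, Acss2 alone) and 5 of 77 at an unadjusted p under 0.05, beside 2.89%. Kcnh7 (1.09 ± 0.33), an ERG-type channel, and Kcna4 (0.51 ± 0.16), an A-type channel, were higher in KO. Kcna4 lay at 31.7, 35.7 and 28.2 CPM in KO and at 21.2 and 25.1 CPM in WT, without overlap. Kcnk13, a K2P gene known from microglia (-0.45 ± 0.16), and Kcng1 (-0.69 ± 0.25) were lower. The 2 WT libraries, 331 and 341, differed in CA1 pyramidal markers (508 and 830 CPM) and in oligodendrocyte markers (12557 and 6408 CPM). The part of these sums in the KO against WT values was not tested. The sex by genotype interaction under Tau passed the FDR for none (0% of all genes) and had an unadjusted p under 0.05 for 2 of 77, beside 2.94%, Kcna4 (0.78 ± 0.21) and Kcnk1 (-0.36 ± 0.14). Kcnb2 (0.66 ± 0.30) and Kcnip3 (-0.45 ± 0.26) were next.

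The spread of channel genes between libraries was wide, also within groups. Over the 77 tested genes the highest of the 17 libraries exceeded the lowest by a median of 2.56-fold, against 1.96-fold over all tested genes. Within the 6 male WT libraries the coefficient of variation had a median of 12.3%, against 9.12% over all tested genes. Female WT Tau 331 was the highest or the lowest of the 17 libraries for 20 of the 77 genes (26.0%), beside 28.9% of all tested genes. Female KO Tau 324 was so for 19 of the 77 (24.7%), beside 14.2%. The next values concern libraries of male KO PBS and male KO Tau that stood apart from the others of their group.

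**Figure D2:**
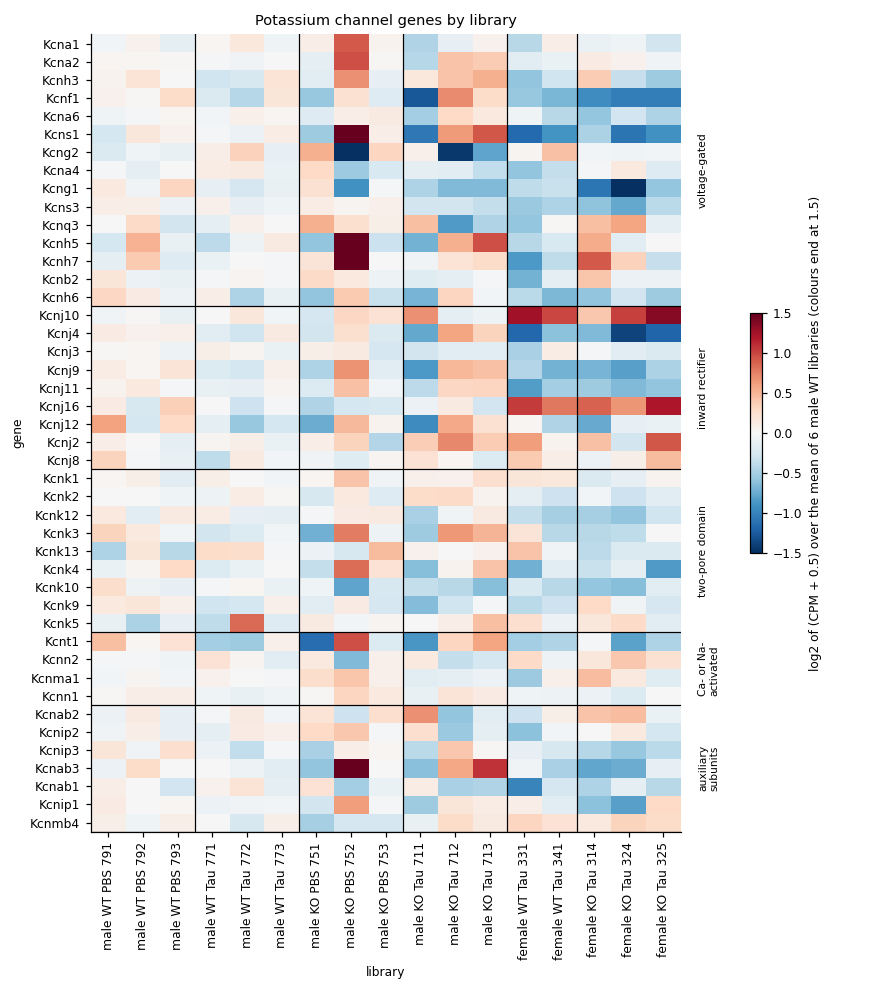
Rows are 44 of the 77 tested genes, those named in the text, grouped by class and ordered by mean TPM, and columns are the 17 libraries. Colour gives the log2 ratio of the CPM (with 0.5 added) to the mean of the 6 male WT libraries, with the scale ending at 1.5 in each direction. The column of male KO PBS 752 is the reddest, male KO Tau 711 and its partners 712 and 713 differ in opposite directions for many Kv genes, and the 5 female columns are red at Kcnj10 and Kcnj16.

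Male KO PBS 752 was the highest or the lowest of the 17 libraries for 32 of the 77 genes (41.6%), beside 24.7% of all tested genes, and it was the highest for 28 of the 32. Kcns1, a silent subunit that alters other Kv channels, lay at 13.1, 62.3 and 20.7 CPM in male KO PBS 751, 752 and 753. Kcnab3, a beta subunit of Kv channels, lay at 33.4, 205 and 50.4 CPM. Kcna2, which assembles with Kcna1 in axons, lay at 265, 568 and 294 CPM. In each of these genes 752 alone was high and the other 2 libraries lay within or below the range of the male WT libraries. Without 752 the log2 difference from WT PBS moved from 0.78 ± 0.54 to -0.14 ± 0.43 for Kcns1, from 0.90 ± 0.57 to -0.30 ± 0.37 for Kcnab3 and from 0.39 ± 0.27 to -0.03 ± 0.19 for Kcna2. None of these values passed the FDR. The striatal and neocortical marker sums of 752 stood apart as given above. Its CA1 pyramidal markers summed to 510 CPM, against 779 to 1175 CPM in the other male libraries. Its CA3 pyramidal markers summed to 293 CPM, against 337 to 673 CPM, and its dentate granule markers to 368 CPM, against 379 to 881 CPM. The part of these sums in these levels was not tested.

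Male KO Tau also divided. For 18 of the 77 genes libraries 712 and 713 lay on 1 side of all 6 male WT libraries and 711 on the other, beside 11.5% of all tested genes. In 14 of the 18, 712 and 713 were above and 711 below, and in 4 (Kcnab2, Kcnip2 and Kcnq3 among them) the reverse held. Kcna2 lay at 217 CPM in 711, 390 in 712 and 380 in 713, against 282 to 298 CPM in male WT. Kcnab3 lay at 32.5, 75.9 and 108 CPM against 45.0 to 61.1 CPM. Kcnj9, a subunit of G protein-gated channels, lay at 86.0, 223 and 213 CPM against 131 to 180 CPM. Kcnq3, a subunit of the M-current that restrains repetitive firing, ran the other way, at 59.0, 23.8 and 31.3 CPM against 35.4 to 52.9 CPM.

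**Figure D3:**
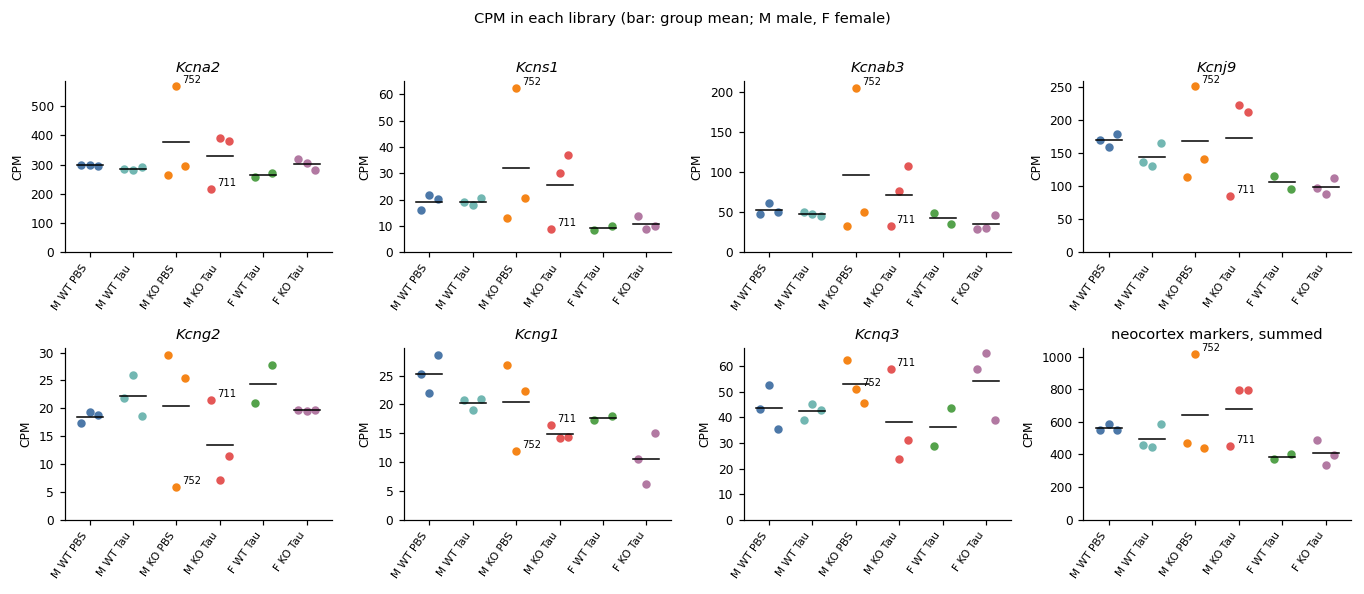
Points are CPM in single libraries, by group, and bars are group means. Libraries 711 (male KO Tau) and 752 (male KO PBS) are marked. Kcna2, Kcns1, Kcnab3 and Kcnj9 are highest in 752 and lowest within male KO Tau in 711. Kcng2 is lowest in 752, at 5.86 CPM, and the summed neocortical markers in the last panel follow the order 752, then 712 and 713.

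With 711 left out and DESeq2 fitted on only the groups compared, 14 of 73 channel genes with an adjusted p passed 0.05 for male KO Tau against male WT PBS, beside 7.09% of all genes, and 10 of the 14 were higher (3.42% of all genes were called higher). Against male WT Tau 23 of 75 passed, beside 9.49%, and 18 were higher (4.37% of all genes were). All 14 genes of the first comparison were among the 23 of the second, and the comparisons share the KO Tau libraries. Against male KO PBS only Kcnq3 passed (-1.005 ± 0.24), beside 0.114% of all genes. With all 3 KO Tau libraries, the same DESeq2 fit called 1 of 70 channel genes (Kcng1, beside 0.152% of all genes) in the first comparison and 0 of 73 (beside 0.197%) in the second, and edgeR with 711 left out called none (beside 0.00655% in each).

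The genes called without 711 came from all classes. Against male WT Tau they were 13 of the 40 Kv genes, 5 of the 14 Kir genes, 3 of the 14 auxiliary subunits, 1 of the 14 K2P genes and 1 of the 8 calcium- or sodium-activated genes. Among Kv genes, Kcna2 was 0.45 ± 0.07 higher on the log2 scale and Kcns1 0.82 ± 0.15. Kcng2, another silent subunit, was lower (-1.23 ± 0.23), as were Kcng1 (-0.50 ± 0.15) and Kcnq3 (-0.61 ± 0.15). Among Kir genes Kcnj9 (0.61 ± 0.12), Kcnj4 (0.58 ± 0.15) and Kcnj11 (0.40 ± 0.11), the pore of the neuronal ATP-sensitive channel, were higher. The beta subunits went both ways, with Kcnab3 higher (0.96 ± 0.16) and Kcnab1 (-0.51 ± 0.11) and Kcnab2 (-0.37 ± 0.13) lower. Kcnt1 was higher (0.78 ± 0.19), as was Kcnk3, an acid-sensitive leak channel (0.78 ± 0.14).

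The calls without 711 were also fitted with marker scores as covariates. In the 2 libraries kept, all 8 neocortical markers were detected and their sum, 796 and 792 CPM, lay above the 443 to 589 CPM of male WT, so group and marker level cannot be told apart in this fit. Other marker sums also set the KO Tau libraries apart. Dentate granule markers summed to 401 and 446 CPM in 712 and 713, against 495 to 654 CPM in male WT. CA1 pyramidal markers summed to 925 and 779 CPM in 712 and 713, against 1025 to 1175 CPM in male WT. For CA3 pyramidal markers the sums were 337 and 382 CPM, against 484 to 620 CPM. Choroid plexus markers summed to 5398 CPM in 713, against 226 to 1116 CPM in all other libraries. Library 711 had astrocyte markers at 3950 CPM against 2189 and 2306 CPM in 712 and 713, oligodendrocyte markers at 8002 CPM against 3806 and 4423 CPM, and inhibitory neuron markers at 645 CPM against 1082 and 1043 CPM. Apart from the dentate granule score, the part of these markers in the calls was not tested. With the neocortex score as a covariate, 0 of 78 channel genes were called against WT PBS (beside 0.064% of all genes) and 0 of 88 against WT Tau (beside 0.0104%). With the dentate granule score 4 of 45 (beside 1.69%) and 2 of 75 (beside 0.668%) were called. Group and dentate granule level cannot be told apart in that fit either. With both 711 and 752 left out, edgeR on the 10 other male libraries called 3 of 77 channel genes for KO Tau against WT PBS (1.27% of all genes), 13 against WT Tau (4.61%) and 26 against KO PBS (10.4%), and 18 for the interaction (6.86%). Of these, 1, 12 and 16 were higher in KO Tau, and 14 of the 18 interaction terms were positive. The same fit called 2, Kcng1 and Kcng2, for Tau against PBS averaged over genotype (1.08%), and none for WT Tau against WT PBS (0%), KO PBS against WT PBS or KO against WT averaged (0.00657% each). These libraries were left out after their values had been seen.

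**Figure D4:**
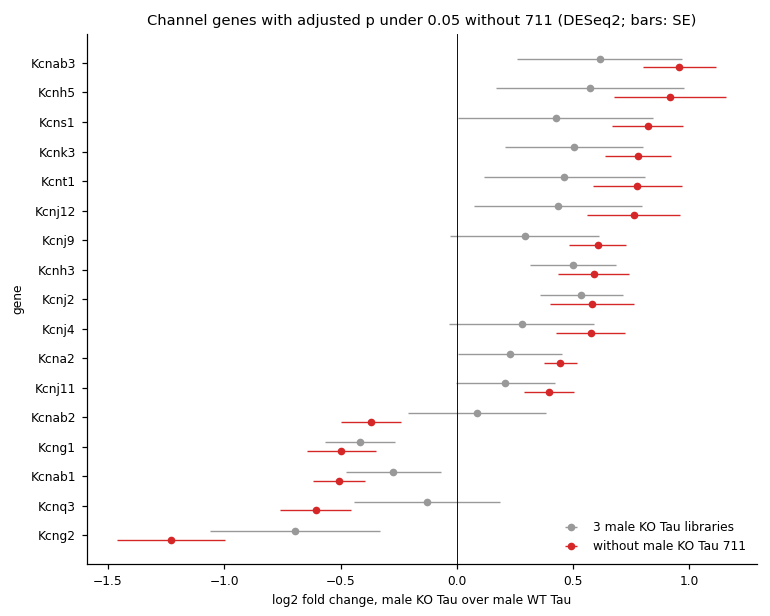
Rows are 17 of the 23 channel genes, those named in the text, with an adjusted p under 0.05 for male KO Tau against male WT Tau without library 711. Points give the DESeq2 log2 fold change with (grey) and without (red) 711, and bars the SE. Kcnab3 is the highest red point, at 0.96, and Kcng2 the lowest, at -1.23, and the red points lie farther from 0 than the grey ones. The rows were chosen by the fit without 711, so this last pattern follows in part from that choice.

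The promoters of 3 genes that varied between libraries are shown to compare a gene high in 712 and 713 with no searched motif (Kcns1), a G protein-gated channel gene (Kcnj9) and its neighbour, the astrocyte gene Kcnj10, whose start site lies 11888 bases away on the other strand. They are the 250 bases before the RefSeq start site (GRCm38.p6), 5′ to 3′ on the gene's strand. RefSeq promoters were found for 65 of the 90 genes, 89 promoters in all. Capitals mark matches on either strand of the letters TATAAA, a core promoter element, or of CCAAT, the site of nuclear factor Y. They do not overlap here.
Kcns1, chr2:164171114-164171363, minus strand: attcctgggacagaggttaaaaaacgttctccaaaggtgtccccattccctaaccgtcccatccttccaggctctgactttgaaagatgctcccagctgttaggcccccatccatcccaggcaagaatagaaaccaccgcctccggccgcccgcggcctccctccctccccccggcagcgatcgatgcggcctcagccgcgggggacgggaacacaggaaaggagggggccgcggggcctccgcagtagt
Kcnj9, chr1:172329323-172329572, minus strand: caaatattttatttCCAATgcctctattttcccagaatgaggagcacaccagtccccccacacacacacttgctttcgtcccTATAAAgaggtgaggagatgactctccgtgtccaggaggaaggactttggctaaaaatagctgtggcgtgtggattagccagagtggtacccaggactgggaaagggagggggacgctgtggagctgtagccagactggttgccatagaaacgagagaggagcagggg
Kcnj10, chr1:172340960-172341209, plus strand: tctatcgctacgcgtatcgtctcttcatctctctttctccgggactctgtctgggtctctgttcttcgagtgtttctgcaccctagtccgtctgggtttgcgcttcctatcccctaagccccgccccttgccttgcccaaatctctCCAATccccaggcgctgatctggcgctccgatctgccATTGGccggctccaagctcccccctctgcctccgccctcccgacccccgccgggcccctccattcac
Kcns1 held 17 CG dinucleotides, Kcnj10 17 and Kcnj9 5, against a median of 6 over all 32851 promoters and 7 over the 89 promoters of channel genes. TATAAA was found in 2 of the 89 promoters (2.25%), Kcnj9 among them, and in 12.4% of all promoters. CCAAT was found in 26 of 89 (29.2%) and in 33.8% of all. TGACGTCA, the cyclic AMP response element, was in 0 of 89 and 1.55% of all, and TGANTCA, an AP-1 site, in 4 of 89 and 6.75% of all. A match is a run of letters and not a measured site.

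Females and males differed at the FDR in edgeR. The 5 female libraries carry the numbers 314 to 341 and the male ones 711 to 793, so sex and number series coincide and cannot be told apart. In Tau libraries, females against males averaged over genotype, 12 of 77 channel genes passed (15.6%), a lower share than the 23.8% of all 15419 tested genes. Of these, 2 were higher in females, Kcnj10 and Kcnj16, and 10 were lower, which were 5 Kv, 3 Kir and 2 K2P genes. The median log2 difference over the channel genes was -0.18 with 21 of 77 higher, against -0.01 over all genes.

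Kcnj16 lay at 52.0, 43.5, 46.4, 39.7 and 58.3 CPM in females (331, 341, 314, 324 and 325) and at 24.9, 19.9, 24.5, 23.5, 27.4 and 20.3 CPM in males (771, 772, 773, 711, 712 and 713). Every female library lay above every male one, and the difference was 0.96 ± 0.11 (adjusted p = 0.00157). Kcnj10 lay at 443, 369, 245, 377 and 475 CPM in females and at 184, 207, 179, 297, 166 and 175 CPM in males. Only male KO Tau 711 reached into the female range, and the difference was 0.86 ± 0.18 (adjusted p = 0.0109). The vascular gene Kcnj8 did not pass (0.20 ± 0.17, adjusted p = 0.390).

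The lower genes were led by Kcnj11, which lay at 30.5, 38.6, 37.9, 34.5 and 36.3 CPM in females and at 50.7, 50.7, 56.8, 42.0, 68.4 and 69.2 CPM in males, with no overlap (-0.73 ± 0.14, adjusted p = 0.00773). Kcns3 did not overlap either, with 7.11 to 9.27 CPM in females and 9.60 to 13.1 CPM in males (-0.46 ± 0.10, adjusted p = 0.0110). In all, 3 of 77 channel genes did not overlap between the sexes, beside 10.4% of all tested genes. Kcnj4 lay at 48.6, 72.4, 70.2, 42.1 and 47.9 CPM in females and at 99.4, 90.01, 122, 64.8, 167 and 140 CPM in males, where male KO Tau 711 alone fell among the females (-1.06 ± 0.25). Kcns1 (-1.21 ± 0.30), Kcnj9 (-0.69 ± 0.21), Kcnk2 (-0.38 ± 0.08) and Kcnk12 (-0.44 ± 0.12) also passed. So did Kcnf1, a silent subunit (-0.88 ± 0.28), and Kcna6, a relative of Kcna1 (-0.42 ± 0.14).

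**Figure D5:**
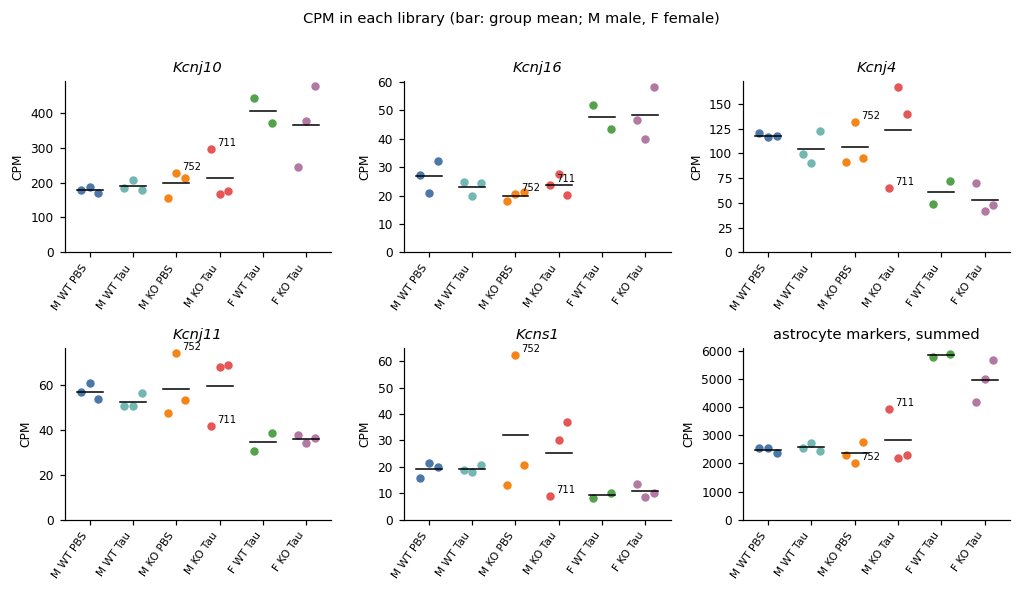
Points are CPM in single libraries, by group, and bars are group means. Kcnj10 and Kcnj16 are higher in the 5 female libraries and Kcnj4, Kcnj11 and Kcns1 lower. The last panel gives the summed CPM of the 8 astrocyte markers, at 4174 to 5908 in females and 2025 to 3950 in males.

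Marker sums of several cell types were set beside the sex calls, and of these only the astrocyte score was fitted as a covariate. All 8 astrocyte markers were detected, and their sum lay at 4174 to 5908 CPM in females and at 2189 to 3950 CPM in male Tau libraries, with no overlap, so sex and astrocyte level cannot be told apart here. Endothelial and mural markers, all 10 detected, did not overlap either, at 456 to 622 CPM in females and 311 to 431 CPM in male Tau libraries. Their part in the values of the vascular genes Kcnj8 and Abcc9 was not tested. Microglia markers summed to 547 to 662 CPM in females and to 430 to 574 CPM in male Tau libraries. Inhibitory neuron markers summed to 509 to 715 CPM in females and to 645 to 1082 CPM in male Tau libraries. Neocortical markers lay at 337 to 490 CPM in females and at 443 to 796 CPM in male Tau libraries. The ranges were 508 to 1099 and 779 to 1127 CPM for CA1 pyramidal markers, and 176 to 678 and 153 to 280 CPM for thalamic ones. The part of these sums in the sex calls was not tested. With the astrocyte score as a covariate no channel gene was called, beside 0.0519% of all genes, and 8 of the 12 changed sign. Leaving out 1 library gave from 2 calls without female WT Tau 331 (beside 3.99% of all genes) to 26 without male KO Tau 711 (beside 40.7%). The count was 7 without male WT Tau 773 (beside 10.3%) and 7 without male KO Tau 713 (beside 11.5%).

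Over all 6 groups together, edgeR called 7 of 77 channel genes for any difference, beside 19% of all tested genes. They were Kcnj16, Kcns3, Kcnj10, Kcnj11, Kcnk12, Kcnj4 and Kcng1. The first 6 were also called between the sexes, a comparison on part of the same libraries. Kcng1 lay lowest in female KO Tau, at 10.5, 6.15 and 15.1 CPM, then in male KO Tau, at 14.2 to 16.3 CPM, and highest in male WT PBS, at 21.96 to 28.6 CPM (adjusted p = 0.0309). Without 711 the count was 18 (beside 30.2% of all genes), and without female KO Tau 324 it was 4 (beside 12.1%).

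How channel genes followed the makeup of the slices was examined with slopes on marker scores within groups, as the log2 change per SD of the score. The slope on the dentate granule score passed the FDR for 15 of 77 channel genes (19.5%), beside 6.25% of all genes. Of these, 3 were positive, Kcng2 (0.47 ± 0.10), Kcng1 (0.26 ± 0.06) and Kcnk10 (0.16 ± 0.04), and 12 negative. Kcna2 (-0.26 ± 0.05), Kcns1 (-0.51 ± 0.10) and Kcnk4, a heat- and stretch-sensitive leak channel (-0.32 ± 0.07), had the smallest p among the negative ones. The others included Kcnt1, Kcnh5, Kcnab3, Kcnk3, Kcnj9, Kcnj12, Kcnh6 and Kcnip3. The slope rested on few libraries, since the count was 0 without male KO PBS 752 (beside 0.553% of all genes), 2 without 751 (1.09%), 4 without male KO Tau 711 (2.06%) and 9 without 712 (3.61%). It was 23 without female KO Tau 324 (10.2%) and 25 without 325 (11.5%).

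The slope on the CA1 pyramidal score passed for 9 of 77 channel genes (11.7%), beside 6.45% of all genes, and 5 of them were positive. These included Kcng2 (0.50 ± 0.12), Kcna4 (0.20 ± 0.05), Kcnab2 (0.28 ± 0.08) and Kcnab1 (0.23 ± 0.06). Kcnip1, a channel-interacting protein known from inhibitory neurons (-0.31 ± 0.05), Kcnab3 (-0.60 ± 0.11) and Kcnk3 (-0.36 ± 0.08) were among the negative ones. Without male KO PBS 752 the count was 3 (beside 4.38% of all genes), without 751 it was 4 (3.11%) and without female KO Tau 314 it was 14 (7.93%). The slopes on the thalamus and oligodendrocyte scores passed for no channel gene, beside 0.0449% and 0.866% of all genes.

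Proteins that bind these channels were followed in a list of 20 partner genes, of which 19 were tested. None passed the FDR in any male comparison, in female KO against WT or in the sex by genotype interaction in edgeR, and 0 to 2 of the 19 had an unadjusted p under 0.05. Between the sexes 8 of 19 passed (42.1%, beside 23.8% of all genes), 1 higher and 7 lower in females, with a median over the list of -0.35. Abcc8, the regulatory subunit of the neuronal ATP-sensitive channel and partner of Kcnj11, lay at 20.8, 29.6, 26.7, 22.2 and 26.8 CPM in females and at 34.8, 40.6, 44.8, 38.7, 40.2 and 47.1 CPM in males, with no overlap (-0.76 ± 0.12, adjusted p = 0.00520). Both genes of that channel were thus lower in females. Abcc9, the vascular counterpart, was the 1 higher gene (0.50 ± 0.14). Gnb5, Lrrc55, Rgs7, Amigo1, Adam23 and Dpp6 were lower, with log2 differences from -0.83 (Lrrc55) to -0.35 (Dpp6). On the dentate granule score 2 of 19 partners (10.5%, beside 6.25% of all genes) had a slope past the FDR, Dpp10 (-0.59 ± 0.14) and Lrrc55 (-0.37 ± 0.10), which modify A-type and large-conductance channels. On the CA1 score 2 of 19 passed (beside 6.45%), Dpp6 (0.23 ± 0.05) and Lrrc55 (-0.43 ± 0.10).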

How the data were processed

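Poly(A) RNA of 17 libraries of mouse dorsal hippocampus was analysed. The authors aligned reads with RNA-STAR 2.5.2 to GRCm38 and counted them over exons with HTSeq 0.9.1 (reverse-stranded), and the deposited values are raw read counts per gene symbol. The annotation release is not given in the sources used here. Exon lengths and positions came from the GENCODE annotation of GRCm38, which held all 90 channel genes by name. Counts were tested over all genes in R 4.3.3 with edgeR 4.0.16 (quasi-likelihood F-test, TMM, filterByExpr with minimum count 10 and total 15, Benjamini-Hochberg FDR 0.05), in 1 fit of the 12 male, the 11 Tau or all 17 libraries. Slopes were fitted beside the groups on marker scores (mean log2 CPM, prior count 2). Alternatives were DESeq2 1.42.0, limma 3.58.1 voom, other filters and factors, score covariates and each replicate left out. Named genes were the 3 highest per class, those past the FDR, the first 2 per direction in each comparison and the first 3 per direction of each slope by p, and Kcnj8, Kcnj10 and Kcnj16. Some genes that this rule names are not reported here. Genes named for libraries 711 and 752 were chosen after their values were seen, as were the promoters. The genes and lists were chosen with earlier results of these data known. The study's own test was DESeq2, and it gives n = 2 for KO Tau in bulk RNA-seq. Its 1029 and 1378 genes for KO Tau against WT PBS and WT Tau equal the counts called here in DESeq2 without 711. Scripts were tested on simulated data.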

Additional observations from a re-analysis of the deposited data

How the results depend on the processing

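No paired analysis was possible because the groups share no replicate number. Every count of called channel genes was 0 when any 1 replicate was left out of the 8 male comparisons, KO against WT in females and the interaction of sex with genotype, in edgeR. With 1 replicate left out the counts ran from 2 to 26 for females against males, from 4 to 18 for any difference among the 6 groups, from 0 to 25 for the dentate granule slope, from 3 to 14 for the CA1 pyramidal slope and from 0 to 1 for the oligodendrocyte slope (1 without male WT PBS 792 or male KO Tau 711). The cause of these moves was not tested.

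With limma voom and quality weights the counts were 28 for females against males, 37 for any difference, 0 for the dentate granule slope, 3 for the CA1 slope and 1 for the oligodendrocyte slope. In the 12 male libraries alone the dentate granule slope gave 31 and the CA1 slope 24. Any difference gave 15 with the dentate granule score as covariate and 18 in DESeq2. The shares of all genes in these fits are not given here, so these counts do not set channel genes against all genes. DESeq2 gave 1 of 58 (Kcnma1) for male KO Tau against male KO PBS, and the share of all genes in that fit is not given here either. On only the groups compared, DESeq2 gave 1 for male KO Tau against male WT PBS. Without 711 that fit gave 14, 23 and 1 against male WT PBS, male WT Tau and male KO PBS. The following were added after the data were seen. With the dentate granule score as covariate the first 2 became 4 and 2. Without 711 and 752 edgeR gave 3, 13 and 26 for the same comparisons, 18 for the interaction and 2 for Tau against PBS averaged. With the astrocyte score as covariate, females against males gave 0.

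Of 1228 recomputed log2 values of the named genes, 1118 kept direction and side of the threshold, 89 no longer passed, 11 newly passed and 10 changed sign. The sign changes were Kcnk5 in male WT Tau against WT PBS without 772 (-0.11, and up to 1.04 with another replicate left out), Kcnk2 (-0.31) and Kcnh3 (-0.068) in the fits without 711 with the neocortex score, and, between the sexes with the astrocyte score, Kcnj10 (-0.15), Kcnj11 (0.027), Kcnj4 (0.43), Kcns1 (0.69), Kcnj9 (0.41), Kcnf1 (0.89) and Kcna6 (0.16). By the longest transcript in place of all exons, 9 of the 10 genes highest in TPM stayed among the 10 highest, and all 10 did when any 1 library was left out.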
